A study of Mus musculus with 12 samples.

Results

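The level, detection and coexpression of 10 early genes were examined in CD8 T cells of NOD mice: Nr4a1, Nr4a2, Nr4a3, Egr1, Egr2, Egr3, Fos, Fosb, Jun and Junb. The genes were chosen by name, with no measured value in the rule but with earlier results of these data known. All 10 were found among the 32285 genes of the count files. The cells came from prediabetic female NOD/ShiLtJ mice aged 10 to 15 wk, in 3 sorted groups: islet cells that bound the NRP-V7 tetramer, islet cells that did not bind it, and spleen cells that bound it. The NRP-V7 peptide on the MHC class I molecule Kd is a mimotope of an IGRP peptide, an autoantigen of islet β cells. Every group was sequenced in 2 rounds with the 10x 5′ assay, and the libraries of a round came from 1 pool of 10 mice, so that no cell can be traced to a mouse. The labels give no treatment or transgene for the mice. All groups were sorted as CD45.1+ cells that carried CD8 and lacked CD4, B220 and CD11b, and the spleen cells were in addition gated as CD44+, a marker of antigen-experienced T cells.

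The islet and spleen cells were handled differently before the sort. Both islet groups were sorted from the same digests, in which the pancreas was inflated with collagenase P (0.5 units/mL) and held at 37 °C for 16 min, and the dispersed islet cells were then kept in medium at 37 °C for 1 h. The spleen was pressed through a filter, red cells were lysed, and CD8 T cells were enriched with magnetic beads, with no enzyme step. The CD44 gate on the spleen cells is a further difference between the tissues. A difference between the 2 islet groups was therefore measured at the same digestion, whereas a difference between islets and spleen cannot be told apart from the handling of the tissue or this gate. Spleen cells that do not bind the tetramer, and islet cells isolated without an enzyme, were not analysed here.

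Immediate early genes are transcribed within minutes of a stimulus from factors that the cell already holds. In T cells, calcium and MAP kinase signals downstream of the T-cell receptor (TCR) induce the orphan nuclear receptors of the Nr4a family and the zinc finger factors of the Egr family. Nr4a1 encodes Nur77 and is widely used as a reporter of TCR signaling, Nr4a2 and Nr4a3 encode Nurr1 and Nor1, and Egr2 and Egr3 are known to restrain T-cell activation. The Fos and Jun proteins pair to form the AP-1 factor. Fos, Jun, Junb and Egr1 also respond to growth factors, heat and the enzymatic dissociation of tissue, which makes them a common concern in cells from digested organs. The Nr4a genes are not taken as free of this concern here.

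The promoters of the genes that the comparisons turn on are shown first, as RefSeq gives them in build GRCm38.p6, from 250 bases before to 50 bases after the transcription start and in the direction of the gene. The capitals mark TGACG, the core of the cAMP response element to which CREB and ATF factors bind, and GCGNGGGCG, the EGR site, on either strand, and Jun, which held neither, is without capitals. The 3 Nr4a genes are shown because they moved together, and Fos and Jun because they moved the other way.
Nr4a1, chr15:101266596-101266895, plus strand: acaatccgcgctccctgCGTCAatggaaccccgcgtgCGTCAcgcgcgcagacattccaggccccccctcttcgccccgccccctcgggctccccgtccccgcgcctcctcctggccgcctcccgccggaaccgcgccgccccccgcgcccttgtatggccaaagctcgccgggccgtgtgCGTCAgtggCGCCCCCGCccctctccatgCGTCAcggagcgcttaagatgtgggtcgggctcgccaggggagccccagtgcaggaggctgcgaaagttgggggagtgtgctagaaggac
Nr4a2, chr2:57123954-57124253, minus strand: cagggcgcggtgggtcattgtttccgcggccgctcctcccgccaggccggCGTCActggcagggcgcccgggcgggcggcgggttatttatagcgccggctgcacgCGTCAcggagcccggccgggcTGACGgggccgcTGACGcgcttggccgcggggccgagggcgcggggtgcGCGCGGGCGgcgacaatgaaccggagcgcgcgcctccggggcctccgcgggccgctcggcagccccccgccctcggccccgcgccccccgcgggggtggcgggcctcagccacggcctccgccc
Nr4a3, chr4:48045055-48045354, plus strand: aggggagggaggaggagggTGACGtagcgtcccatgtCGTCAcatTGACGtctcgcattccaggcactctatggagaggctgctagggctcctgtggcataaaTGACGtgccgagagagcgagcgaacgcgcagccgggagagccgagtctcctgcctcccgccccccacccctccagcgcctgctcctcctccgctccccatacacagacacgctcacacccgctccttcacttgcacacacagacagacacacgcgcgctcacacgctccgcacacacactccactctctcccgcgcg
Fos, chr12:85473640-85473939, plus strand: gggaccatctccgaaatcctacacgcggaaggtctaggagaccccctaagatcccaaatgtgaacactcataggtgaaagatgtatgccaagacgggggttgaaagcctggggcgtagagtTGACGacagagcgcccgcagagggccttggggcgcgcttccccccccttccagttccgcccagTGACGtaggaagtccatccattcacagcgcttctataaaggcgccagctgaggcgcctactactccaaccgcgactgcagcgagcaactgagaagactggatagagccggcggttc
Jun, chr4:95052173-95052472, minus strand: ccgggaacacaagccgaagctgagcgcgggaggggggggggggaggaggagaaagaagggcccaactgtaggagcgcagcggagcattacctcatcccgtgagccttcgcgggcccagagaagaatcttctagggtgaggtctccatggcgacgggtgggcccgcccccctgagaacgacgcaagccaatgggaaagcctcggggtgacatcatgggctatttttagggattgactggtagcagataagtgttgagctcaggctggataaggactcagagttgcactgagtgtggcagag

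TGACG, read on both strands, occurred 4 times in the window of each of Nr4a1, Nr4a2 and Nr4a3, 2 times in that of Fos and 0 times in that of Jun. Of all 32851 promoter windows of this length, 20.8% held it at least 1 time and 0.231% at least 4 times. Junb and Fosb held it 1 time each, and Egr2, which has 5 annotated starts, between 0 and 2 times. The motif was chosen after the windows had been seen. The whole palindrome TGACGTCA (1.79% of all windows), the AP-1 site TGANTCA (7.81%) and the NBRE AAAGGTCA to which Nr4a proteins bind (1.51%) were found in none of the 12 windows. The EGR site GCGNGGGCG was present 1 time in Nr4a1, Nr4a2 and Fosb (5.55% of all windows). The CArG box, to which serum response factor binds, was present in 4 of the 5 Egr2 windows, of which 3 overlap, and in 1.63% of all windows. Windows of 8 of the 10 genes were used, all but Egr1 and Egr3. These matches describe letters in a short window and not binding in these cells.

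After the limits on mitochondrial share and genes per cell, 24117 of 26818 cells were kept, between 1204 and 8932 in a library. The libraries held between 5880696 and 40469961 UMIs, and the median cell held between 3793 and 4216.5 UMIs in the islet libraries and 2590 and 2764.5 in the spleen libraries. Because the spleen cells were shallower, shares of cells with a UMI were taken after each cell was thinned to 1000 UMIs, and 26 to 100 shallower cells a library were left out of these shares. Levels are UMIs relative to the total of the library, on the CPM scale, which counts each molecule once at its 5′ end and needs no length. Each pair of libraries shared between 2 and 64 cell barcodes, at most 1.03% of the smaller library. The labels were checked against markers: at least 99.3% of cells in every library had a UMI of 1 of the 6 CD8 T-cell markers, the summed level of the 4 B-cell markers was at most 11.4 CPM, that of the 6 myeloid markers at most 6.86 CPM, that of the 2 NK markers at most 1.01 CPM, and the 4 globin genes were at most at 1.01 CPM. RNA of pancreatic exocrine cells was present in the islet libraries, with 45.6 to 249 CPM over 6 markers against 5.62 and 6.51 CPM in the spleen, and 9.80 to 12.9% of islet cells had a UMI of it. The 6 endocrine markers summed to 5.27 to 136 CPM in the islets and were all at 0 in the spleen. The exocrine cluster that the study left out was not removed here. Of the cells kept, 200, all from the islets, had at least 10 UMIs of the exocrine and endocrine markers, 148 of them in the second tetramer-negative library, and 3 of the 200 had no UMI of the CD8 T-cell markers. With so few, no other cell type was used as a background for the shares of cells with a UMI.

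The 3 Nr4a genes were higher in both islet groups than in the spleen. Nr4a1 was at 131 and 229 CPM in Rounds 1 and 2 of the tetramer-positive islet cells, at 152 and 210 CPM in the tetramer-negative islet cells, and at 43.2 and 14.9 CPM in the tetramer-positive spleen cells. The islet groups overlapped, and both lay above both spleen libraries. Nr4a2 was at 566 and 775 CPM in tetramer-positive and at 503 and 481 CPM in tetramer-negative islet cells, against 171 and 173 CPM in the spleen. This was the only one of the 3 genes whose tetramer-positive libraries both lay above both tetramer-negative libraries. Nr4a3 was at 116 and 251 CPM, at 196 and 250 CPM, and at 19.4 and 13.0 CPM in the same order. Its islet groups overlapped, and its spleen libraries were the lowest of the 3 groups.

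The share of thinned cells with a UMI followed these levels. Nr4a1 was found in 13.7% ± 6.07 (SD, n = 2 libraries) of tetramer-positive islet cells, 14.2% ± 3.17 of tetramer-negative islet cells and 2.89% ± 2.18 of spleen cells. For Nr4a2, the shares were 44.4% ± 4.73, 30.6% ± 0.131 and 15.2% ± 0.0175. For Nr4a3, they were 13.4 and 22.6% in the 2 tetramer-positive islet libraries, 16.6 and 21.3% in the tetramer-negative ones, and 1.88 and 1.05% in the spleen. At least 1 of the 3 genes was found in 51.9 and 63.5% of tetramer-positive islet cells, in 46.0 and 51.1% of tetramer-negative islet cells, and in 20.6 and 17.2% of spleen cells. All 3 were found together in 0.934 to 3.54% of the cells of an islet library and in 0 of the 3452 and 2373 thinned spleen cells, which allows shares of up to 0.0869 and 0.126%. Cells with an Nr4a2 UMI held 4.04 ± 0.756 such UMIs in tetramer-positive islet cells and 1.54 ± 0.0604 in spleen cells before thinning. The islet cells were also deeper, so these UMIs per cell are not compared at equal depth. The share of cells with an Nr4a2 UMI was higher in the islets after thinning. In summed counts, fewer cells with a gene and less RNA per cell cannot be told apart.

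The Egr genes were low and did not follow one pattern. Egr1, which responds to many stimuli besides the TCR, was at 38.1 and 64.4 CPM in tetramer-positive islet cells, at 57.6 and 73.1 CPM in tetramer-negative islet cells, and at 78.5 and 69.5 CPM in the spleen. Both tetramer-positive islet libraries lay below both spleen libraries for Egr1, and the tetramer-negative ones overlapped with each. Egr2, which restrains activated T cells, was at 9.18 and 10.0 CPM, at 8.23 and 7.54 CPM, and at 2.81 and 2.46 CPM. These values rested on 17 to 305 UMIs a library, and the 4 islet libraries all lay above both spleen libraries. Egr3 was close to absent, with 2 and 0 UMIs in the tetramer-positive islet libraries, 37 and 58 in the tetramer-negative ones and 4 and 1 in the spleen. An Egr3 UMI was left in 0 of 1178 and 0 of 1555 thinned tetramer-positive islet cells, which allows shares of up to 0.255 and 0.193%, and in 0.110 and 0.215% of tetramer-negative ones. These limits cover counting error only.

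Fos and Jun had the opposite order to the Nr4a genes. Fos, the AP-1 partner whose RNA is very short-lived, was at 115 and 183 CPM in tetramer-positive islet cells, at 185 and 222 CPM in tetramer-negative islet cells, and at 417 and 343 CPM in the spleen. Jun was at 89.8 and 146 CPM, at 148 and 191 CPM, and at 536 and 425 CPM. For both genes, the 2 spleen libraries were the highest of the 6 and the tetramer-positive islet libraries were lower than the tetramer-negative library of the same round. Fosb, another partner of Jun proteins in AP-1, was at 41.8 and 67.9 CPM, at 45.7 and 68.4 CPM, and at 54.2 and 72.5 CPM. The groups of Fosb overlapped, and the second round was higher in each of them. Junb was the most abundant of the 10 genes on the UMI scale, with 1075 and 1644 CPM, 1501 and 2119 CPM, and 1209 and 1115 CPM. Its tetramer-negative islet libraries lay above both spleen libraries, and the tetramer-positive ones lay on either side of them. In thinned cells, Jun was found in 10.3% ± 3.57 of tetramer-positive and 14.8% ± 1.78 of tetramer-negative islet cells and in 33.3% ± 4.57 of spleen cells. The shares for Fos were 12.1% ± 0.176, 15.1% ± 1.92 and 27.6% ± 2.96.

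The plot of levels by library shows these orders side by side.

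**Figure D1:**
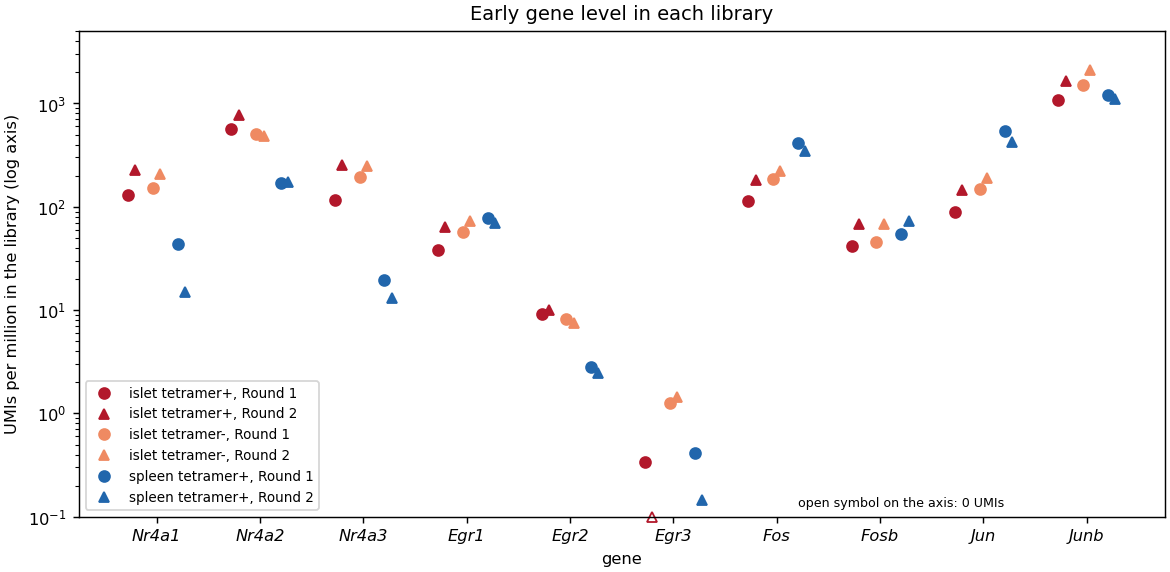
CPM (UMIs relative to the library total, log axis) of the 10 early genes, where each point is 1 library, colours are the 3 sorted groups and symbols the 2 rounds. The spleen libraries lie below all islet libraries for Nr4a1, Nr4a2, Nr4a3 and Egr2 and above all of them for Fos and Jun, while Egr1, Fosb and Junb overlap between tissues and Egr3 was at 0 UMIs in 1 library.

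The islet groups were compared first, since they shared the digestion. Between the islet cells that bound the tetramer and those that did not, 0 of the 10 genes passed the test at an adjusted p of 0.05 (edgeR quasi-likelihood test on counts summed per library, adjusted over 11277 genes), where 0.151% of all genes were called higher and 1.04% lower. In total, 1982 genes had an unadjusted p under 0.05, 1 of the 10 early genes among them (Egr3), and DESeq2 also called 0 of the 10. The largest difference in a gene with more than 2 UMIs a library was that of Jun, with a log2 fold change of -0.55 ± 0.27 (SE) and an adjusted p of 0.35 by edgeR. Nr4a2 differed by 0.43 ± 0.20 (adjusted p = 0.33), Fos by -0.47 ± 0.25 (0.38), Nr4a1 by -0.03 ± 0.54 (0.99) and Nr4a3 by -0.32 ± 0.37 (0.69). The median over the 10 genes was -0.34, beside -0.01 over all genes tested.

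The libraries of a round came from the same pool of mice, and with the round as a replicate block 3 of the 10 genes passed the edgeR test, where 14.4% of all genes were called higher and 16.1% lower. Nr4a2 was then higher in tetramer-positive cells (0.43 ± 0.13, adjusted p = 0.026), and Jun (-0.54 ± 0.19, adjusted p = 0.046) and Egr3 (-3.17 ± 0.81, adjusted p = 0.010) were lower. The fold change of Egr3 rests on 2 UMIs in the tetramer-positive libraries and depends on the prior count of the model. Within rounds, Nr4a2 was 1.13-fold and 1.61-fold higher in tetramer-positive cells, and Jun was 1.65-fold and 1.31-fold lower. Genes of quiescent T cells moved with this comparison too: Ccr7, Lef1, Klf2 and S1pr1, 4 genes in all, summed to 1307 and 1925 CPM in the tetramer-negative and to 250.5 and 507 CPM in the tetramer-positive group. Their part in the result was not tested.

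When only islet cells with a UMI of Pdcd1, which encodes the coinhibitory receptor PD-1, were compared, the Nr4a2 difference was 0.01 ± 0.20 (edgeR, adjusted p = 0.998) and 0 of 9 early genes tested passed. Of all 10652 genes tested in these cells, 0 were called higher and 0 lower. In cells of clones of at least 2 cells, the Nr4a2 difference was -0.07 ± 0.23 (edgeR, adjusted p = 0.96), again with 0 of 9. Of all 10556 genes tested there, 1 was called higher and 1 lower, so these counts are not particular to the early genes. Both are fits without the block.

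Tetramer-positive cells of the islets and the spleen were compared next, where the antigen specificity was held and the tissue and its handling differed. Of the 10 genes, 4 were higher and 2 lower in the islets by the edgeR test, where 13.7% of all genes were called higher and 12.9% lower. Among these, Nr4a3 rose most, by a log2 fold change of 3.52 ± 0.41 (SE, adjusted p = 0.0045), and was 5.99-fold and 19.3-fold higher in Rounds 1 and 2. Its fold change ranked 211 from the top of 11277 genes, and that of Jun ranked 412 from the bottom. Nr4a1 rose by 2.63 ± 0.58 (adjusted p = 0.023), with 3.03-fold and 15.4-fold in the rounds. Nr4a2 rose by 2.04 ± 0.21 (adjusted p = 0.0032) and Egr2 by 1.93 ± 0.26 (adjusted p = 0.0063). In the other direction, Jun fell by 1.98 ± 0.28 (adjusted p = 0.0072) and Fos by 1.298 ± 0.25 (adjusted p = 0.017), which was 5.97-fold and 2.92-fold for Jun and 3.63-fold and 1.88-fold for Fos within rounds.

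Egr1 (-0.47 ± 0.24, adjusted p = 0.195), Fosb (-0.12 ± 0.23, adjusted p = 0.74), Junb (0.29 ± 0.28, adjusted p = 0.48) and Egr3 (-0.91 ± 1.303, adjusted p = 0.64) did not pass the edgeR test. With the replicate block, Egr1 also passed as lower in the islets (-0.47 ± 0.18, adjusted p = 0.037), and 28.0% of all genes were then called higher and 27.1% lower. Nr4a1 lost its call without either tetramer-positive islet library (adjusted p = 0.051 and 0.074), and Fos lost it without the first islet (0.070) or the first spleen library (0.076). The folds of Nr4a1 and Nr4a3 were smaller in Round 1, where the spleen levels were higher and the islet levels lower. The 4 quiescence genes summed to 250.5 and 507 CPM in the islets against 1251 and 1846 CPM in the spleen, although Ccr7 alone was higher in the islets (153 and 315 against 108 and 135 CPM), and exocrine and endocrine RNA differed as given above. The part of quiescence in the result was not tested. When cells with a UMI of an exocrine or endocrine marker were left out, an alternative chosen after seeing the data, 6 of the 10 genes passed as before.

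Tetramer-negative islet cells were set against the same spleen libraries, so this comparison shares its controls with the one above and differs from it in the specificity of the islet cells. The summed quiescence genes were close in these groups, at 1307 and 1925 CPM in the islets against 1251 and 1846 CPM in the spleen. The single genes were not all close. Ccr7 was higher in the islets (467 and 943 against 108 and 135 CPM) and Klf2 was lower (444 and 585 against 744 and 1361 CPM). Lef1 was at 247 and 220 against 222 and 158 CPM, and S1pr1 at 149 and 176 against 178 and 193 CPM. Of the 10 early genes, 4 were higher and 1 lower, where 12.2% of all genes were called higher and 10.2% lower. The 4 were again Nr4a3 (3.84 ± 0.42, adjusted p = 0.0050), Nr4a1 (2.65 ± 0.58, adjusted p = 0.027), Egr2 (1.66 ± 0.25, adjusted p = 0.011) and Nr4a2 (1.61 ± 0.20, adjusted p = 0.0066), and Jun fell by 1.43 ± 0.27 (adjusted p = 0.019). Fos differed by -0.83 ± 0.25 (adjusted p = 0.063), Junb by 0.72 ± 0.28 (0.12) and Egr3 by 2.22 ± 0.82 (0.10). With the replicate block, 29.2% of all genes were called higher and 26.3% lower, and Fos (-0.83 ± 0.17, adjusted p = 0.0013) was lower and Junb (0.70 ± 0.17, adjusted p = 0.0039) and Egr3 (2.24 ± 0.63, adjusted p = 0.0085) were higher. These calls depended on single libraries: 2 genes were called without the first tetramer-negative islet library (Nr4a2 and Nr4a3), 3 without the second (Nr4a2, Nr4a3 and Egr2), and 2 without either spleen library, against 5 with all. Nr4a1 then had adjusted p values of 0.071, 0.0996 and 0.054, without the first and second islet and the second spleen library, at log2 fold changes between 2.03 and 2.79. Without cells that had an exocrine or endocrine UMI, 5 of the 10 genes passed as before.

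**Figure D2:**
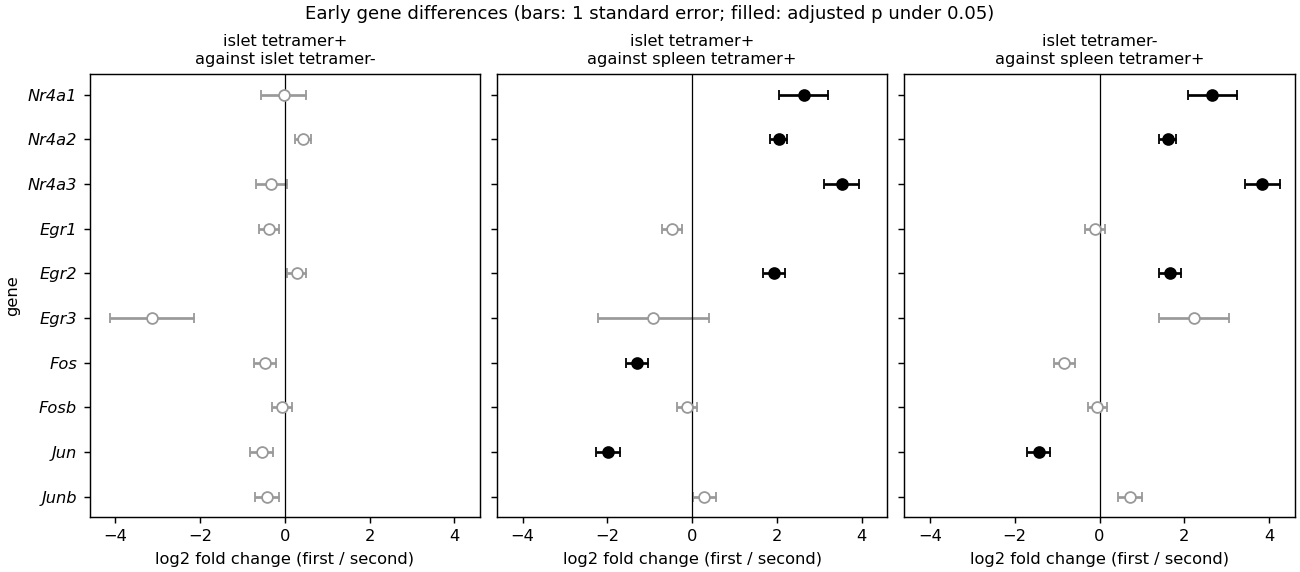
Log2 fold change of each early gene in the 3 comparisons, with bars of 1 standard error and filled points for an adjusted p under 0.05 in edgeR without a block. The Nr4a genes and Egr2 lie to the right and Jun to the left in both comparisons with the spleen, and none of the 10 points is filled between the 2 islet groups.

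The same TCR could be followed into both tissues. In the tetramer-positive libraries, 17 clones, defined by their α and β CDR3 sequences, had at least 20 cells in the islets and in the spleen of a round (6 in Round 1 and 11 in Round 2). They held 23 to 205 islet cells and 20 to 323 spleen cells each. Nr4a1, Nr4a2 and Nr4a3 were each higher in the islet cells in 17 of 17 clones. Across the clones, Nr4a1 ranged from 91.3 to 329 CPM in islet cells (median 203) and from 0 to 67.5 CPM in spleen cells (median 17.3). The ranges did not overlap for Nr4a1, and they did not overlap for Nr4a2 (394 to 1216 against 95.9 to 312 CPM) or Nr4a3 (57.3 to 352 against 0 to 24.6 CPM). Egr2 was higher in the islets in 15 of 17 clones, with medians of 9.86 CPM in islet cells and 0 CPM in spleen cells. This count rests on few UMIs a clone, near the floor of detection.

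Jun was higher in the islet cells in 0 of 17 clones, with 22.6 to 219 CPM there against 234 to 563 CPM in the spleen. Fos was higher in the islets in 1 of 17, with medians of 151 and 366 CPM, and Egr1 and Fosb were in 6 of 17 each. Junb was higher in the islets in 10 of 17, with medians of 1100.4 and 1183 CPM. Clones of a round share their libraries and are not replicates, so no test was made over them. When the libraries were reduced to cells of clones found in both tissues of a round, the edgeR test called the same number of early genes as in all cells (4 higher and 2 lower), with log2 fold changes of 2.80 ± 0.54 for Nr4a1, 3.52 ± 0.47 for Nr4a3 and -2.02 ± 0.30 for Jun. Over all genes, 862 were then called higher and 760 lower, against 1549 and 1455 in all cells.

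**Figure D3:**
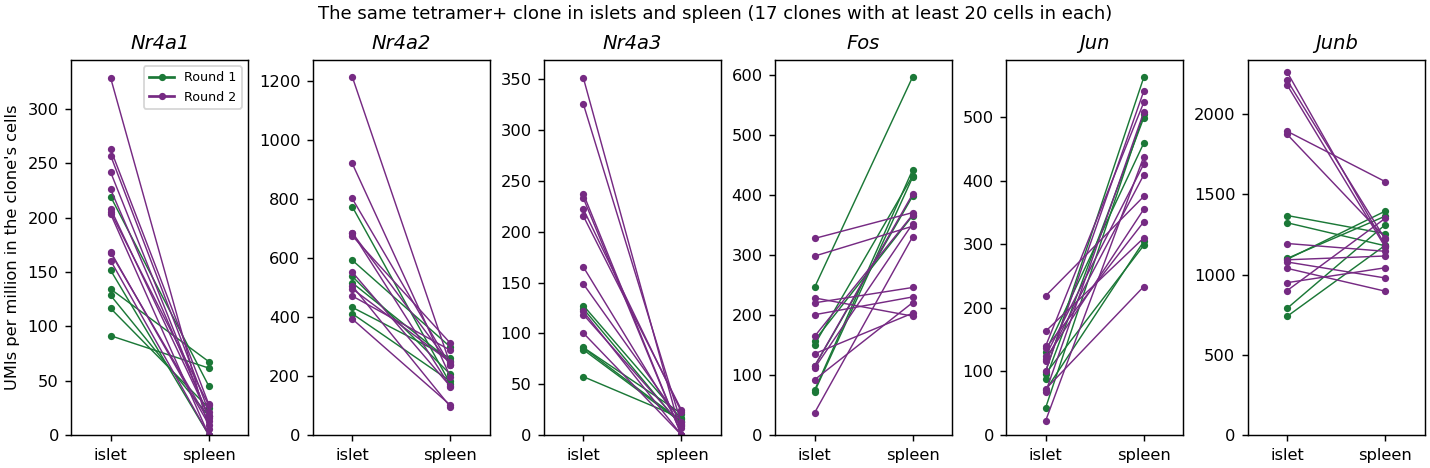
Level of 6 early genes (CPM over the cells of a clone) in 17 tetramer-positive clones with at least 20 cells in the islets and in the spleen of a round, where a line joins the 2 tissues for 1 clone and colours are rounds. Every line falls from islet to spleen for Nr4a1, Nr4a2 and Nr4a3 and rises for Jun, and 1 of 17 falls for Fos.

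Lists of other genes were read in the same fits, a list of 22 genes induced by TCR signaling and a list of 32 genes reported to rise on dissociation or heat, neither of which holds any of the 10 early genes. Both lists were chosen with earlier results of these data known. Between tetramer-positive cells of the islets and the spleen, 10 of 22 TCR response genes (45.5%) were higher and 7 (31.8%) lower in the islets. Of all genes, 13.7% were called higher and 12.9% lower. The median log2 fold change of the list was 0.43 beside -0.03 over all genes. The TCR response genes with the largest rise were Tnfrsf4 (OX40, 6.25 ± 0.23), Tnfrsf9 (4-1BB, 5.29 ± 0.29) and Icos (4.58 ± 0.25), which are costimulatory receptors. Those with the largest fall were the cytokine gene Ifng (-1.92 ± 0.29), the early activation marker Cd69 (-1.90 ± 0.23) and Myc (-1.73 ± 0.19). The list thus moved in both directions.

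In the same comparison, 6 of 32 digestion and stress genes were higher and 5 lower in the islets, with a median of -0.13, and these shares of 18.8% and 15.6% lay near those of all genes (13.7% and 12.9%). Among the called genes with at least 20 CPM in the higher group, those that changed most were Klf4 (1.61 ± 0.37), the chaperone Hspd1 (1.54 ± 0.17) and Gadd45b (1.298 ± 0.24) among the higher, and Klf2 (-3.30 ± 0.48), the heat shock gene Hspa1b (-2.29 ± 0.66) and Nfkbiz (-1.43 ± 0.23) among the lower. The called gene that rose most was Atf3, a stress-induced partner in AP-1 and ATF complexes (3.16 ± 0.32), which was named after its values were seen, as it was at 4.25 and 6.14 CPM in tetramer-positive and 8.10 and 10.6 CPM in tetramer-negative islet cells, against 0.624 and 0.579 CPM in the spleen. Klf2 is also one of the 4 quiescence genes given above. With the replicate block, 10 were higher and 13 lower, where 28.0% and 27.1% of all genes were. The summed level of the 32 genes was 9955 and 13233 CPM in tetramer-positive islet cells, 11457 and 15629 CPM in tetramer-negative islet cells, and 12129 and 12552 CPM in the spleen. The second round was thus higher than the first in all 3 groups, by a wider margin in the islets than in the spleen. The part of digestion and of TCR signaling in the levels of the early genes was not tested.

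For tetramer-negative islet cells against the spleen, 10 of 22 TCR response genes (45.5%) were higher and 8 (36.4%) lower (median 0.92). Of all genes, 12.2% were called higher and 10.2% lower. Tnfrsf4 (6.52 ± 0.23), Icos (4.45 ± 0.24) and Tnfrsf9 (4.199 ± 0.28) again rose most, and the chemokine genes Ccl3 (-2.41 ± 0.36) and Ccl4 (-2.34 ± 0.30) and Ifng (-2.08 ± 0.29) fell most. Of the 32 digestion and stress genes, 7 (21.9%) were higher and 1 (3.1%) lower, where 12.2% and 10.2% of all genes were. Atf3 (4.01 ± 0.31) and Hspb1 (3.16 ± 0.56), both under 20 CPM and named after their values were seen, rose most, followed by Socs3 (2.51 ± 0.25), Klf4 (1.39 ± 0.37) and Hspd1 (1.25 ± 0.17). Ier3 (-2.48 ± 0.47) was the 1 gene that was lower, and the median of the list was 0.23. With the replicate block, 13 of the 32 were higher and 7 lower, where 29.2% and 26.3% of all genes were. Between the 2 islet groups, 0 of 22 TCR response genes passed (median 0.05), and of the digestion and stress genes 0 were higher and 1, Nfkbiz (-1.63 ± 0.23, adjusted p = 0.043 by edgeR), was lower (median -0.41). Of all genes, 0.151% were called higher and 1.04% lower there. With the replicate block, 6 of 22 TCR response genes were higher and 3 lower in tetramer-positive islet cells, and 1 of 32 digestion and stress genes was higher and 12 were lower, where 14.4% and 16.1% of all genes were.

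Of 12 tested relatives of the early genes, which include other AP-1 partners and cofactors, 3 were higher in the islets in each comparison with the spleen and 0 were lower, where 13.7% and 12.9% of all genes were for tetramer-positive and 12.2% and 10.2% for tetramer-negative islet cells. Fosl2, an AP-1 gene of the Fos family, was at 96.8 and 192 CPM in tetramer-positive islet cells, at 228 and 330 CPM in tetramer-negative islet cells, and at 12.1 and 10.7 CPM in the spleen. Its log2 fold changes against the spleen were 3.71 ± 0.34 and 4.68 ± 0.36. Against the spleen it thus moved as the Nr4a genes did, while between the islet groups it was lower in tetramer-positive cells in both rounds, as Fos was. Batf, the AP-1 partner that works with IRF4 in activated T cells, was higher in tetramer-positive islet cells than in the spleen (1.60 ± 0.26). The others, named after their values were seen, were Batf3 in both comparisons and Maff in tetramer-negative cells (2.38 ± 0.34), each under 20 CPM. Batf3 was at 5.27 and 7.64 CPM in tetramer-positive and 3.19 and 3.36 CPM in tetramer-negative islet cells, against 0.312 and 0.579 CPM in the spleen. With the replicate block, 8 of 12 were higher and 2 lower in tetramer-positive islet cells, and 6 were higher and 0 lower in tetramer-negative islet cells, where the shares of all genes were 28.0% and 27.1%, and 29.2% and 26.3%. Between the islet groups, 0 of 12 passed without the block. With it, 4 were higher and 4 lower, where 14.4% and 16.1% of all genes were. Fosl2 was among the lower (-0.99, adjusted p = 0.00087 by edgeR with the block, against -0.97 and 0.20 without it).

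**Figure D4:**
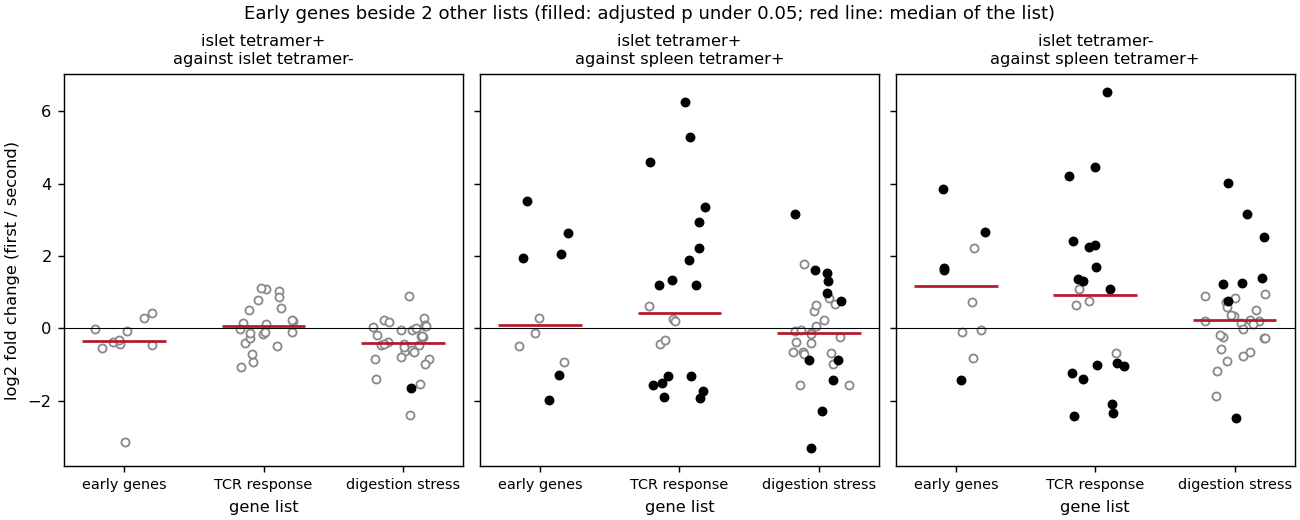
Log2 fold change of the 10 early genes, 22 TCR response genes and 32 digestion and stress genes in the 3 comparisons, where each point is a gene, filled points have an adjusted p under 0.05 in edgeR without a block, and the red line is the median of the list. Early genes and TCR response genes spread to both sides of 0 in the comparisons with the spleen and so do the digestion and stress genes, whose medians are -0.13 and 0.23.

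Coexpression was read across the cells of each library, in thinned UMIs, as a description with no test. Correlations were weak throughout, as sparse counts give them, and the cells of a library share its depth and preparation. For the 36 pairs without Egr3, which was too rare, the mean Pearson r over 6 libraries was positive in 36, and the median pair had a mean r of 0.065 over the 4 islet libraries and 0.010 over the 2 spleen libraries. In 34 of 36 pairs, the islet mean was above the spleen mean, and in 23 the 4 islet libraries all lay above both spleen libraries. The pairs share genes, and pairs of other genes were not counted in this way. The counts can therefore not be called particular to the early genes. The pair with the highest islet mean was Nr4a2 and Junb (0.176 in the islets, 0.045 in the spleen), followed by Nr4a1 and Fos (0.161 and 0.018).

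Low counts of Nr4a1 and Nr4a3 in the spleen limit what their pairs can show there, but Fos and Jun were more abundant in the spleen than in the islets. Even so, Fos and Jun had a mean r of 0.129 in the islets (0.109 to 0.145 over 4 libraries) and 0.078 in the spleen (0.071 and 0.085), and Fos and Junb had 0.127 and 0.048. Fos and Fosb, at 0.113 and 0.109, hardly differed between tissues. Within the Nr4a family, Nr4a2 and Nr4a3 had an islet mean of 0.130 (0.084 to 0.151). Nr4a1 and Nr4a3 had r values of 0.078 to 0.118 in 3 islet libraries and of -0.0088 in the first tetramer-positive one. At least 1 Nr4a gene was found in 48.8 to 66.6% of the islet cells with a Jun or Junb UMI and in 38.9 to 54.5% of those without, and in 22.2 and 17.6% of the spleen cells with such a UMI and 15.8 and 16.4% of those without. A thinned islet cell held 1.51 to 2.00 of the 10 genes on average and a spleen cell 1.65 and 1.48, whereas 4 or more genes were found in 5.86 to 11.1% of the cells of an islet library and in 4.81 and 3.33% of spleen cells.

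**Figure D5:**
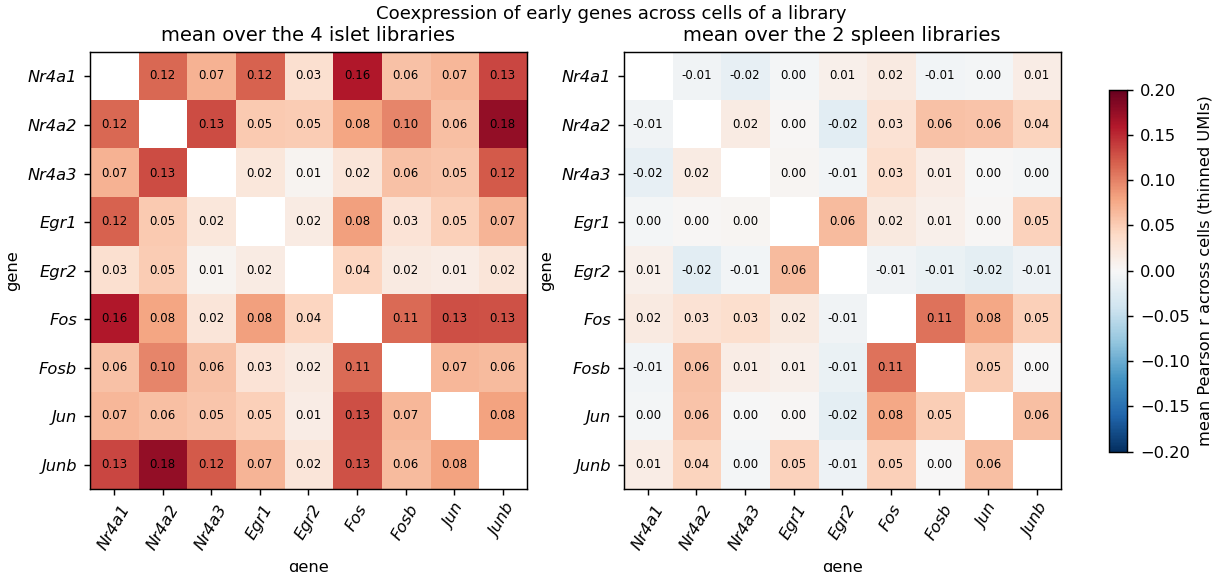
Mean Pearson correlation across cells, in UMIs thinned to 1000 a cell, for pairs of 9 early genes, over the 4 islet libraries (left) and the 2 spleen libraries (right). Values in the islets reach 0.18 for Nr4a2 and Junb. Those in the spleen reach 0.109 for Fos and Fosb and 0.078 for Fos and Jun. Egr1 and Egr2 (0.063), Jun and Junb (0.060) and Nr4a2 and Fosb (0.058) are close to each other there, and Fosb and Junb are at 0.0014. The value for Egr1 and Egr2 rests on very few cells. Both were found in 0.058 and 0.042% of spleen cells, against 24.3 and 19.3% for Jun and Junb.

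Up to 3 genes most like each early gene across cells were named. By the mean r over 6 libraries, among 1875 or 1874 genes found in at least 5% of the thinned cells of every library, Nr4a1 was most like Nfkbia (0.150), Gadd45b (0.145) and Zfp36 (0.119). Fos was most like Nfkbia (0.164), Gadd45b (0.159) and Cd69 (0.153), so its first 2 were those of Nr4a1. These means hide a wide spread between libraries. The r with Nfkbia ran from -0.0072 to 0.252 for Nr4a1 and from 0.011 to 0.288 for Fos. With Gadd45b, r ran from 0.014 to 0.266 for Nr4a1 and from -0.0030 to 0.322 for Fos. A gene named here can therefore show no likeness in a single library. Nr4a2 was most like the chemokine gene Ccl5 (0.141), Junb (0.132) and Rgs16 (0.114). Junb was most like Nr4a2, Nfkbia (0.131) and Zfp36 (0.122). Nr4a3 was most like Nr4a2 (0.092), Junb (0.081) and Tnfaip3 (0.067), an inhibitor of NF-κB signaling. Jun was most like Fos (0.112), Ppp1r15a (0.076) and Cd69 (0.075), and Fosb was most like Fos (0.112), Nr4a2 (0.085) and Malat1 (0.070). Egr1 was most like Ccl4 (0.075) and Egr2 also (0.050). Nfkbia, Gadd45b, Zfp36 and Ppp1r15a are in the list of digestion and stress genes, and Cd69 and Ccl4 in that of TCR response genes.

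The summed thinned counts of the 2 lists were also set against each early gene across cells. In the islets, the mean r with the TCR response list was 0.202 for Nr4a2, 0.182 for Junb, 0.158 for Nr4a1, 0.149 for Fos, 0.133 for Nr4a3 and 0.044 for Jun. With the digestion and stress list it was 0.163, 0.235, 0.204, 0.218, 0.077 and 0.120 in the same order. Nr4a3 had the higher value with the TCR response list in each of the 4 islet libraries, and Nr4a1, Fos and Jun had it with the digestion and stress list in each. Junb did so in 3 of the 4. For Nr4a2 the islet groups went opposite ways: the r with the TCR response list and with the digestion and stress list was 0.109 against 0.183 and 0.133 against 0.203 in the tetramer-positive libraries, and 0.296 against 0.151 and 0.272 against 0.116 in the tetramer-negative ones. In the spleen, these values were at most 0.111, with Nr4a2 at 0.103 against 0.029 and Jun at 0.056 against 0.096. The lists differ in size and abundance, and no test was made of these differences.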

How the data were processed

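CD8 T cells were sorted from pooled mice and sequenced with the 10x 5′ kit, and the reads of the RNA libraries were longer in Round 2 than in Round 1. The authors deposited raw UMI counts per gene and cell, made with Cell Ranger on the mm10 transcriptome (the file header names version 5.0.1). The contig tables that the authors deposited gave productive chains, and cells with the same α and β CDR3 sequences formed a clone. Ambient RNA was not removed, and no doublet caller was run.

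Cells with under 5% mitochondrial UMIs and 200 to 3500 genes (islets) or 200 to 2000 genes (spleen) were kept. Counts summed per library were tested with edgeR 4.0.16 (TMM, filterByExpr, quasi-likelihood test, 6 libraries in 1 fit, no block, Benjamini-Hochberg over all genes, threshold 0.05) in R 4.3.3. CPM, shares and correlations were computed in Python 3.11.15. Standard errors were taken from the fold change and its F statistic. The members and the gene lists were chosen with earlier results of these data known. Named genes were all 10 members and, of each list, the 3 called genes with the largest change in each direction with at least 20 CPM in the higher group.

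Libraries of a round came from the same pools. Their deviations from the group means correlated (Pearson r between 0.707 and 0.764 across 11277 genes), so blocked values are given where they changed a call. Alternatives were the replicate block, only the 4 libraries compared, DESeq2 size factors, DESeq2 1.42.0, all genes kept without a count filter, islet and spleen cells kept with no upper gene limit, cells with more than 1 β chain left out, marker-positive cells only, subsets by Pdcd1 or clone, and each library left out. Cells with an exocrine or endocrine UMI were left out as a further alternative, chosen once the values were known. The model was also run on simulated counts with 1 fixed spread for all genes. A limit on the share of changes recovered was set there only for fits with the replicate block. The main fit without the block was not held to that limit. With 2 libraries against 2, an exact permutation test cannot go below 0.333, so none was used. Without the block, a p-value here sets a difference against the spread between 2 rounds, in which mouse pool and sequencing cannot be told apart. It leaves out the pairing of libraries by pool.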

Additional observations from a re-analysis of the deposited data

How the results depend on the processing

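With the round as a replicate block, which pairs libraries of the same pools, 3 of the 10 early genes passed between the islet groups (0 without it), and 8 passed for tetramer-negative islet cells against the spleen (5 without it). Over all genes, the block gave 1624 higher and 1818 lower calls between the islet groups (17 and 117 without it), 3162 and 3053 for tetramer-positive islet against spleen cells (1549 and 1455), and 3290 and 2961 for tetramer-negative islet against spleen cells (1380 and 1150). It changed no call of the 10 genes beyond those given above. Between the islet groups, the counts of higher and lower genes were 209 and 365 with DESeq2, 171 and 540 with no filter on low counts, 2 and 22 with only the 4 libraries compared, 0 and 0 in cells with a Pdcd1 UMI, and 1 and 1 in clones of at least 2 cells. In shared clones, tetramer-positive islet against spleen cells gave 862 higher and 760 lower genes. These last 3 settings hold fewer cells.

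When a library was left out, the arm with 1 library was assumed to vary like the other groups. Between the islet groups, 0 genes were then higher in each case and 0 to 10 lower. For tetramer-positive islet against spleen cells, 475 to 1078 genes were higher, 417 to 813 lower, and 4 to 6 of the 10 early genes passed. For tetramer-negative islet against spleen cells, 239 to 454 were higher, 143 to 232 lower, and 2 or 3 of the 10 passed. Nr4a3 passed in each of these fits against the spleen. No direction of an early gene that passed was reversed. Fos passed for tetramer-negative islet against spleen cells also with DESeq2 (adjusted p = 0.015), with no filter on low counts (0.024) and without the upper gene limit (0.044), and the cause was not tested. Egr2 and Egr3 are limited by their counts, and Egr3 did not pass the filter in the subsets by Pdcd1 or clone, or with only the 4 tetramer-positive libraries.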
